A study of Mus musculus with 15 samples.

Results

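The clustered protocadherins are neuronal cell-surface adhesion proteins encoded side by side in the alpha, beta and gamma gene clusters. Members were chosen by symbol alone, as every gene named Pcdha, Pcdhb or Pcdhg followed by a digit, or by a, b or c and a digit. The rule found 58 genes among the 27179 gene identifiers of the count table, all on chromosome 18 between 36.93 and 37.84 Mb (RefSeq, GRCm38.p6). They comprise 12 alpha genes, 22 beta genes, 12 genes of the gamma A and 7 of the gamma B type, and the 5 C-type genes Pcdhac1, Pcdhac2, Pcdhgc3, Pcdhgc4 and Pcdhgc5.

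Brain tissue of mice aged 12 months was compared between 2 genotypes. The transgenic (TG) animals carried human α-synuclein homozygously, driven by the promoter of proteolipid protein (PLP), which is active in oligodendrocytes, and serve as a model of multiple system atrophy. The wild-type (WT) animals were non-transgenic C57Bl/6 mice of matched age and sex. RNA came from frozen hemispheres and was sequenced as bulk tissue, giving 8 WT libraries (4 male, 4 female) and 7 TG libraries (3 male, 4 female). Overexpression from an oligodendrocyte promoter in all animals of 1 line limits the model, and each genotype and sex has its own title prefix in the labels, so genotype and any litter or cage cannot be told apart. No label states how the replicates relate, so each p-value reflects only the spread among these libraries.

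In the alpha and gamma clusters each gene contributes its own large first exon with its own promoter, which is spliced to exons shared by the whole cluster, while beta genes consist of a single exon. A neuron transcribes a small, largely random choice of these promoters, aided by the insulator protein CTCF and by cohesin, and the resulting combination lets its branches recognise themselves. C-type genes lie at the ends of the alpha and gamma clusters and are chosen more regularly; Pcdhgc4 is needed for neuron survival and Pcdhac2 for the tiling of serotonergic axons.

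Libraries held between 15170772 and 35850998 counts. Although every sample is labelled as brain hemisphere, markers of brain regions separated the libraries. Ward clustering on 5 region marker lists, which include no protocadherin, gave an olfactory-marker class (3 WT, 2 TG), a cortex-marker class (3 WT, 2 TG), a hindbrain-marker class (2 WT, 2 TG) and a single TG female library with cerebellum markers. The summed level of 6 hindbrain and spinal cord markers was 386 to 689 counts per 1000000 counts of the library (CPM) in the hindbrain-marker class and at most 0.406 CPM in the olfactory- and cortex-marker classes. WT male 2 and TG male 3 fell in the cortex-marker class, although their mean log2 CPM over 6 olfactory bulb markers, 6.50 and 6.95, lay within the 5.55 to 7.02 of the olfactory-marker class. Adding the olfactory bulb list as the sixth list moved both into the olfactory-marker class. That second assignment was adopted only after the calls of the 5-list fit had been seen, and its results are given as an alternative. The classes were not uniform in other markers either. In the 5-list olfactory-marker class, 6 striatal markers summed to 813 CPM in WT male 1 and 818 CPM in TG female 2. They summed to 243 to 435 CPM in the rest of that class. The sum of 6 hypothalamus markers was 88.4 CPM in WT male 1 and 39.0 CPM in TG female 4 of the hindbrain-marker class. The mean log2 CPM over 8 neuronal markers was 9.10 to 9.69 in WT and 9.08 to 9.86 in TG libraries.

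Members differed widely in level. Per kilobase of the variable exon, or of the whole gene for beta genes, the mean over the 15 libraries was highest for the C-type genes Pcdhgc3 with 26.0, Pcdhgc5 with 19.8 and Pcdhac2 with 14.9 CPM per kb. The median was 8.82 CPM per kb over gamma A genes, 4.38 over gamma B, 4.32 over beta and 2.64 over alpha genes. The highest of the remaining genes were Pcdhga4 with 12.3 and Pcdhb9 with 11.8 CPM per kb. Reads in shared exons are not length-corrected here, so the ranks of alpha and gamma genes rest on how the counting assigned such reads, for which the sources used here state no rule.

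The lowest members were Pcdha4 and Pcdhb1. Pcdha4 lay between 0.0604 and 0.556 CPM and was the only member that did not pass the count filter, leaving 57 tested among 17151 genes. Its level is uncertain: the overlapping identifier Gm37013, annotated from 36952648 to 37841873 on the same chromosome, had 0 counts in all libraries and Pcdha4 had 91. Members with closely similar exons can also exchange reads, and how reads mapping to several genes were handled was not stated in these sources.

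Between genotypes, 11 of the 57 tested members changed, with 9 higher and 2 lower in TG. The increases were in Pcdha8 of the alpha cluster, Pcdhb3 and Pcdhb8 of the beta cluster, and Pcdhga4, Pcdhga7, Pcdhga8, Pcdhga10, Pcdhgb4 and Pcdhgb8 of the gamma cluster. Pcdhga11 and Pcdhgb6, both gamma genes, fell. The test was edgeR's quasi-likelihood F test with sex and the 5-list region class as covariates and a Benjamini-Hochberg adjusted p under 0.05. The 11 make 19.3% of the tested members, beside 0.251% of all genes called (0.0933% higher, 0.157% lower). The median log2 difference of the tested members was 0.35 against 0.01 over all genes, and 48 of 57 members had a positive value. With classes from 6 lists the count was 20 (18 higher, 2 lower) beside 0.496% of all genes, and it included all 11; this larger number comes from the assignment adopted after the 5-list calls were known.

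**Figure D1:**
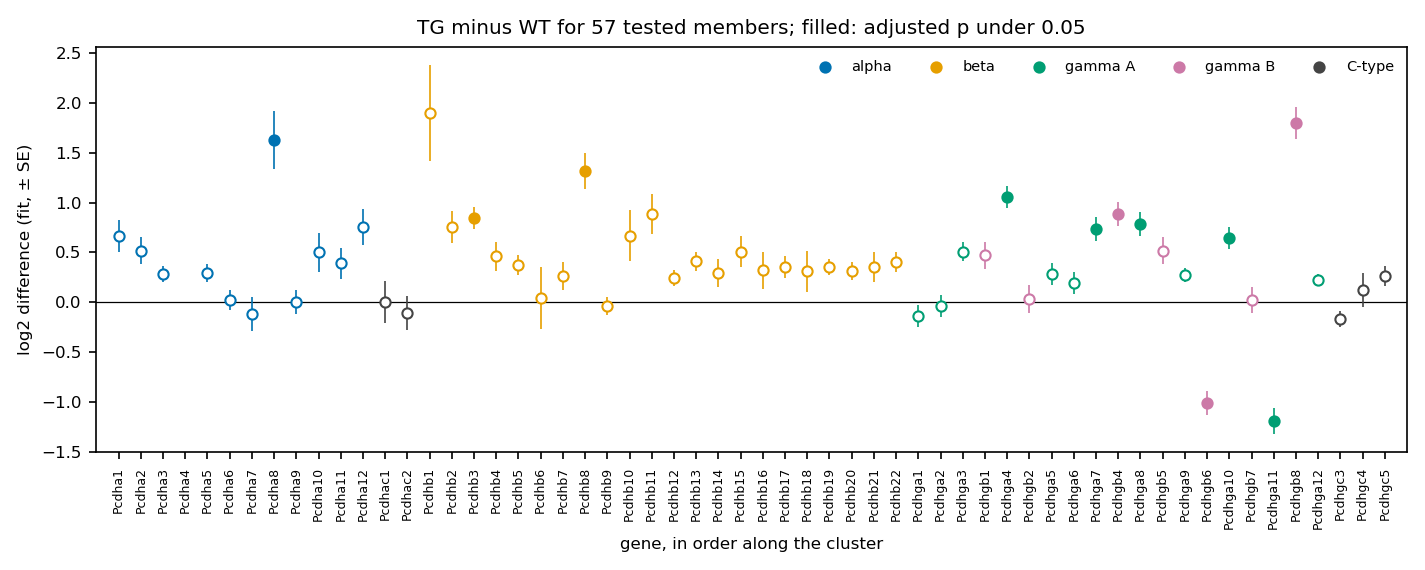
Log2 difference TG minus WT with its SE (vertical axis) for each of 57 tested members in order along the cluster (horizontal axis), coloured by subcluster, with filled points passing an adjusted p of 0.05. The 2 members that fell, Pcdhgb6 and Pcdhga11, stand among gamma genes that rose, and the 5 C-type genes lie between -0.17 and 0.26.

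In the gamma cluster, Pcdhgb8 showed the lowest adjusted p. This gene is annotated as a transcribed pseudogene. Its level was 2.45 CPM at the lowest, 4.32 at the median and 7.31 at the highest among 8 WT libraries, and 10.1, 13.9 and 18.2 CPM among 7 TG libraries. The genotypes did not overlap. TG exceeded WT by a log2 difference of 1.80 ± 0.16 (SE), a 3.47-fold increase with an adjusted p of 0.000242.

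Pcdhga4 encodes a gamma A isoform and reads 14.3, 22.1 and 28.1 CPM as the lowest, median and highest WT value, and 34.8, 43.3 and 52.9 CPM in TG. Every TG library exceeded every WT library. The log2 difference was 1.06 ± 0.11 (SE), with an adjusted p of 0.00112. Its share of all gamma counts was 4.12% to 4.23% in WT and 8.20% to 8.95% in TG libraries of the hindbrain-marker class, and 3.56% to 4.21% in WT against 5.70% to 6.00% in TG libraries of the olfactory-marker class.

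Pcdhgb4, a gamma B isoform, was 5.98, 7.45 and 9.96 CPM at the lowest, median and highest in WT and 9.73, 12.8 and 17.2 CPM in TG. The groups overlapped at 1 library of each genotype, the lowest TG value being the cerebellum-marker library. The log2 difference was 0.89 ± 0.12 (SE; adjusted p = 0.00998), and without TG female 2 the adjusted p was 0.0507.

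The remaining gamma increases were smaller. Pcdhga8 had a log2 difference of 0.79 ± 0.12 (SE), with WT libraries from 13.3 to 22.5 CPM and TG libraries from 24.4 to 40.5 CPM, which did not overlap. Pcdhga7 had 0.74 ± 0.12 and Pcdhga10 had 0.65 ± 0.11, and for both the genotypes overlapped. These calls lay near the threshold: leaving out each of the 15 libraries in turn, Pcdhga8 passed in 11 fits, Pcdhga7 in 5 and Pcdhga10 in 3. Over all alternatives the log2 difference stayed between 0.64 and 0.85 for Pcdhga8, 0.64 and 0.81 for Pcdhga7 and 0.59 and 0.72 for Pcdhga10. Pcdhga8 lost its call without WT male 3, WT male 4, TG female 2 or TG male 1. Pcdhga7 kept its call without WT male 1, TG female 3, TG male 1, TG male 3 or TG male 4, and Pcdhga10 without WT male 2, TG female 3 or TG male 4.

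Pcdhga11 and Pcdhgb6 moved the other way. Pcdhga11, a gamma A isoform, was 19.6, 40.4 and 57.3 CPM at the lowest, median and highest in WT and 10.7, 16.9 and 17.7 CPM in TG. All TG libraries lay below all WT libraries. The log2 difference was -1.19 ± 0.13 (SE; adjusted p = 0.00155). Its share of the gamma counts was 5.26% to 8.57% in WT and 1.80% to 3.17% in TG across the classes.

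Pcdhgb6, a gamma B isoform, was 16.0, 24.3 and 34.9 CPM at the lowest, median and highest in WT and 7.72, 13.8 and 21.4 CPM in TG. The groups overlapped only through the TG cerebellum-marker library at 21.4 CPM, since the next TG value was 14.4 CPM. The log2 difference was -1.01 ± 0.12 (SE; adjusted p = 0.0036). Both decreases, and the increases of Pcdhgb8, Pcdhga4, Pcdhb3 and Pcdhb8, passed in all 15 fits that left out 1 library. In 10 other settings, Pcdhgb8 and Pcdhga11 passed in all 10. Pcdhga4 passed in 9 of them, Pcdhgb6 in 8, Pcdhb3 in 7 and Pcdhb8 in 6. Without the region class term Pcdhgb6, Pcdhb3 and Pcdhb8 did not pass.

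**Figure D2:**
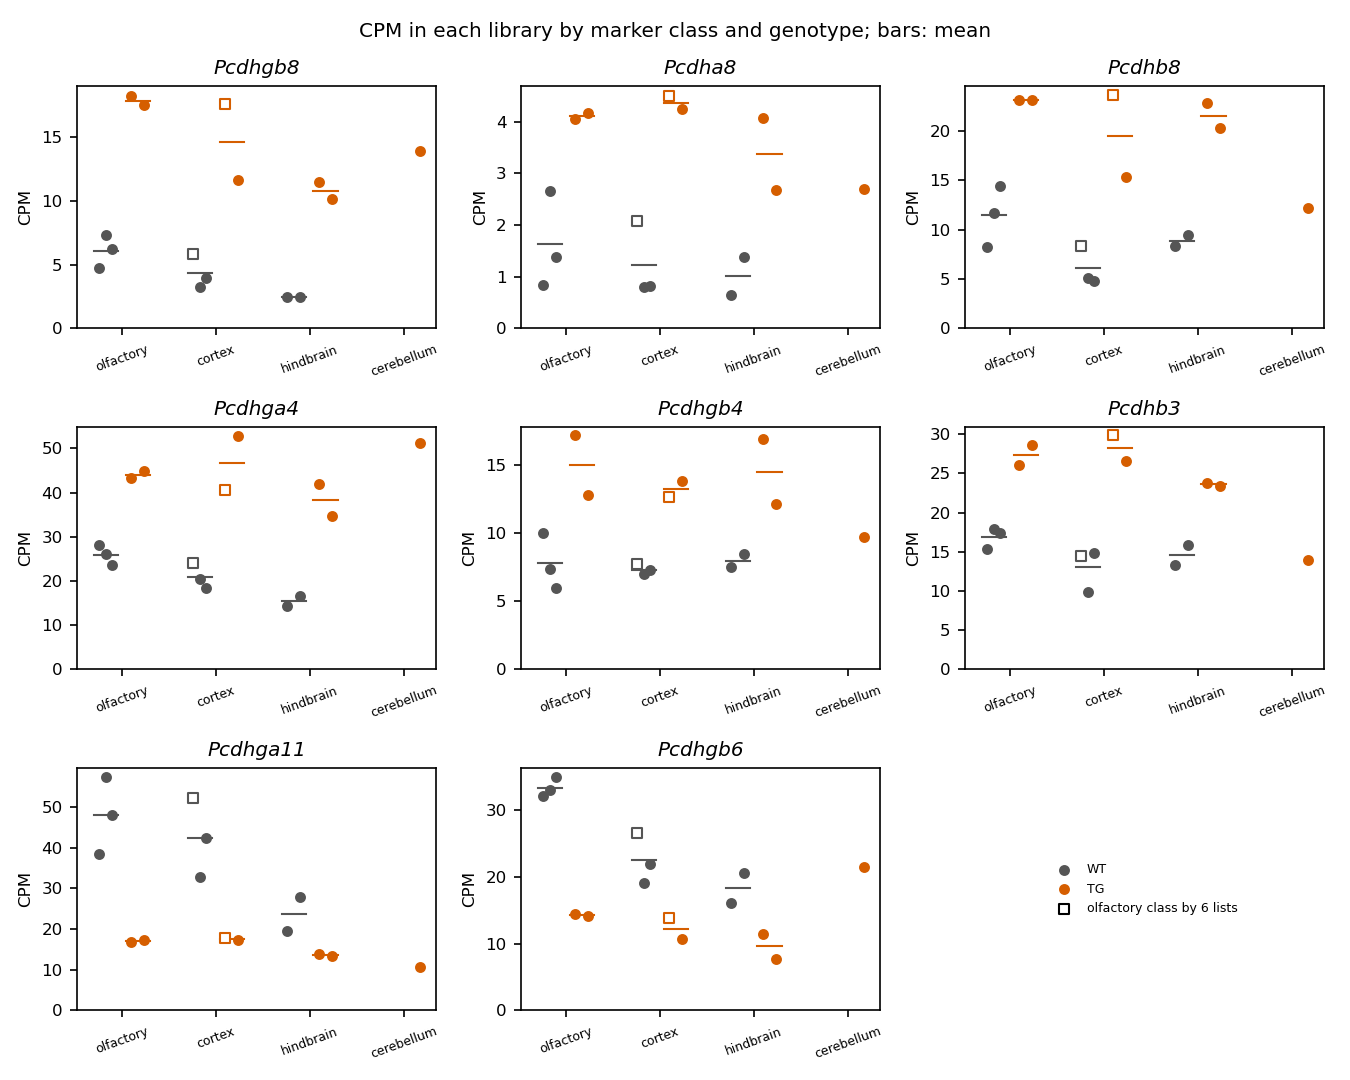
CPM (vertical axis, from 0) in each library by 5-list marker class (horizontal axis) and genotype for the 6 members with the largest increase among those called and both called with a decrease; bars are means and open squares are the 2 libraries that 6 lists place in the olfactory class. Pcdhgb8 is at least 10.1 CPM in every TG library and at most 7.31 CPM in every WT library, and Pcdhga11 shows the opposite order.

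In the beta cluster, 2 of 22 genes rose, and 21 of 22 had a positive log2 difference. Pcdhb8 was 4.76, 8.32 and 14.4 CPM at the lowest, median and highest in WT and 12.2, 22.8 and 23.6 CPM in TG. The overlap came from WT female 4 at 14.4 CPM and the TG cerebellum-marker library at 12.2 CPM. Its log2 difference was 1.32 ± 0.18 (SE; adjusted p = 0.00882).

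Pcdhb3 was 9.88, 15.1 and 17.9 CPM at the lowest, median and highest in WT and 13.9, 26.0 and 29.9 CPM in TG. Apart from the cerebellum-marker library at 13.9 CPM, all TG libraries were above all WT libraries. It rose by a log2 difference of 0.85 ± 0.11 (SE; adjusted p = 0.00567). Pcdhb1 had a larger value, 1.90 ± 0.48, which did not pass (adjusted p = 0.342): it was at most 0.609 CPM in WT and between 0.624 and 2.03 CPM in TG, without overlap but with 168 counts in all. Pcdhb9, the beta gene with the highest level per kb, had a log2 difference of -0.04 ± 0.09.

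In the alpha cluster 1 of 11 tested genes passed. Pcdha8 was 0.655, 1.11 and 2.66 CPM at the lowest, median and highest in WT and 2.67, 4.07 and 4.50 CPM in TG. The groups did not overlap, although the highest WT and the lowest TG value nearly met. This gave a log2 difference of 1.63 ± 0.29 (SE; adjusted p = 0.0488), and the call was kept in 3 of the 15 fits leaving out 1 library, those without WT male 2, WT female 1 or TG female 3. Pcdha12, the alpha gene with the highest level per kb, had 0.76 ± 0.18 (adjusted p = 0.245), and Pcdha9 had 0.00 ± 0.12.

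Of the 5 C-type genes 0 passed between genotypes by edgeR's quasi-likelihood test, limma-voom or DESeq2, and 2, Pcdhgc5 and Pcdhgc3, had an unadjusted p under 0.05 with edgeR. Their log2 differences were 0.26 ± 0.10 (SE) for Pcdhgc5, 0.12 ± 0.17 for Pcdhgc4, 0.00 ± 0.21 for Pcdhac1, -0.11 ± 0.17 for Pcdhac2 and -0.17 ± 0.08 for Pcdhgc3. Within both the olfactory- and the hindbrain-marker class Pcdhgc5 was higher and Pcdhgc3 lower in each TG than in each WT library. The sign changed with the processing for Pcdhac1, Pcdhac2, Pcdhgc4 and Pcdhgc5. Over all 15 libraries 6 members separated the genotypes without overlap: Pcdha8, Pcdhb1, Pcdhga4, Pcdhga8 and Pcdhgb8 higher and Pcdhga11 lower in TG. They make 10.5% of the tested members, beside 0.187% of all genes.

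Summed over each subcluster, the differences were smaller than for these single isoforms. The alpha sum was 53.8, 68.4 and 86.1 CPM at the lowest, median and highest in WT and 69.6, 86.0 and 107 CPM in TG. The beta sum was 236, 312 and 402 CPM in WT and 329, 349 and 500 CPM in TG. For gamma A the values were 173, 280 and 298 CPM in WT and 243, 319 and 381 CPM in TG. All 3 sums overlapped between the genotypes over the 15 libraries, and they were higher in each TG library than in each WT library within the olfactory- and hindbrain-marker classes.

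Gamma B summed to 59.9, 89.7 and 111 CPM at the lowest, median and highest in WT and 71.1, 117 and 121 CPM in TG. The C-type sum was 161, 310 and 350 CPM in WT and 169, 312 and 350 CPM in TG. Fitted with sex and class, the log2 difference was 0.41 ± 0.11 (SE) for beta, 0.38 ± 0.06 for alpha, 0.33 ± 0.07 for gamma A, 0.21 ± 0.10 for gamma B and 0.03 ± 0.05 for C-type counts, given without a test. In bulk tissue, fewer cells of a type and less RNA per cell cannot be told apart.

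**Figure D3:**
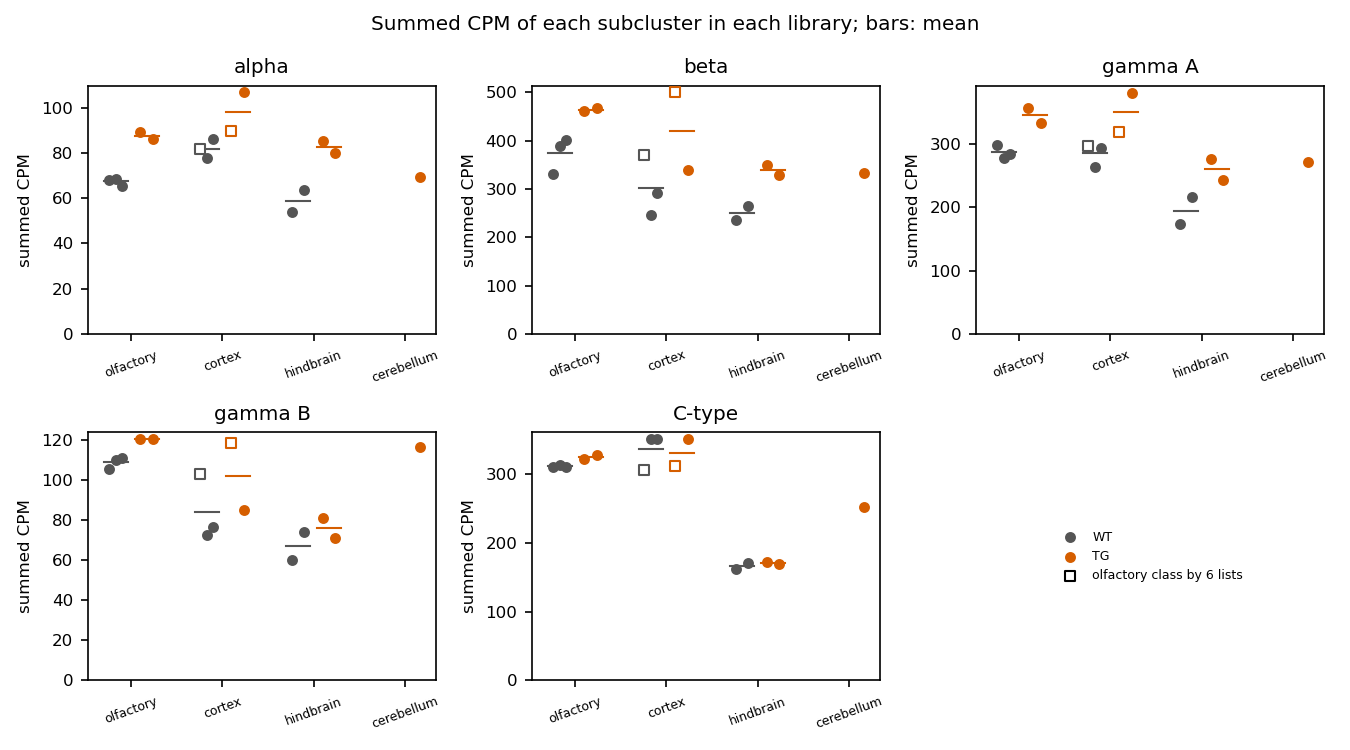
Summed CPM of the members of each subcluster (vertical axis, from 0) in each library, by marker class (horizontal axis) and genotype; bars are means and open squares the 2 libraries that 6 lists place in the olfactory class. In the hindbrain-marker class the beta sum is 236 to 265 CPM in WT and 329 to 349 CPM in TG, while the C-type sum is 161 to 171 and 169 to 172 CPM.

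Within the classes most members separated by genotype, but none passed the test. TG and WT libraries did not overlap for 41 of 57 members (71.9%) in the olfactory-marker class, beside 16.5% of all genes, and for 45 (78.9%) in the hindbrain-marker class, beside 38.6%. In both classes and in the same direction this held for 36 members (63.2%), 33 of them higher in TG, beside 5.80% of all genes. Overlap was judged without adjusting for sex. In the hindbrain-marker class both TG libraries were female, while the WT libraries were of both sexes. In the olfactory-marker class (3 WT, 2 TG) 0 of 57 members were called by edgeR's quasi-likelihood test, beside 0.0117% of all genes. Of the members, 20 had an unadjusted p under 0.05 by this test, and DESeq2 called 5. The shares of all genes for both of these counts are not given here, so they do not set the members apart. In this class the log2 differences were -1.44 ± 0.21 (SE) for Pcdhga11, -1.21 ± 0.21 for Pcdhgb6, 1.58 ± 0.27 for Pcdhgb8 and 0.75 ± 0.15 for Pcdhga4. With classes from 6 lists, where this class holds 4 WT and 3 TG libraries, 7 passed beside 0.245% of all genes: Pcdhb3, Pcdhb8, Pcdhga4, Pcdhga10 and Pcdhgb8 higher, Pcdhgb6 and Pcdhga11 lower.

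In the hindbrain-marker class (2 WT, 2 TG) 0 of 57 members were called by edgeR's quasi-likelihood test, beside 0.0117% of all genes. By this test 17 members had an unadjusted p under 0.05, and DESeq2 called 2, both without an all-gene share given here. Pcdhgb8 had a log2 difference of 2.09 ± 0.33 (SE) and Pcdhga4 one of 1.35 ± 0.18, and both passed with the 6-list classes, as 2 members beside 0.0700% of all genes. The 6-list counts in both classes carry the caveat given above on when that assignment was made.

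Whether the genotype difference itself differed between the hindbrain- and olfactory-marker classes was tested as an interaction. By edgeR's quasi-likelihood test 0 members passed, beside 0% of all genes, and DESeq2 also called 0; 1 member had an unadjusted p under 0.05. The lowest p values were those of Pcdhga4, with a difference of log2 differences of 0.60 ± 0.24 (SE; adjusted p = 1), and Pcdhga5, with 0.52 ± 0.27 (adjusted p = 1); neither passed.

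Sex gave no call either. By edgeR's quasi-likelihood test 0 of 57 members differed between females and males, beside 0.0408% of all genes; 1 had an unadjusted p under 0.05 and DESeq2 called 0. The lowest p values belonged to Pcdhb5, with a log2 difference female minus male of 0.25 ± 0.11 (SE), and Pcdhga11, with 0.31 ± 0.14, which did not pass (adjusted p = 1 for both).

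Levels of many members differed between region classes, as did those of many genes at large. Between the hindbrain- and olfactory-marker classes 27 of 57 members changed, 2 higher and 25 lower in the hindbrain-marker class. That is 47.4% of the members beside 54.2% of all genes, so the share was near that of all genes. The direction was uneven among the members, while 27.2% of all genes were called higher and 27.0% lower. The median log2 difference was -0.49 over members and 0 over all genes. With classes from 6 lists 39 members passed, beside 66.8% of all genes.

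By subcluster, 10 of 22 beta genes, 7 of 12 gamma A, 5 of 7 gamma B and 1 of 11 alpha genes fell. After Pcdhgc5, the largest decreases among the called members were those of Pcdhb4 with -1.46 ± 0.19 (SE), Pcdhga10 with -1.31 ± 0.14, Pcdhgb1 with -1.12 ± 0.19, Pcdhgb8 with -1.05 ± 0.20 and Pcdhb16 with -0.99 ± 0.25. Pcdha5, the alpha gene that fell, had -0.93 ± 0.11. The summed level of 6 oligodendrocyte markers was 12700 to 15700 CPM in the hindbrain-marker class and 1590 to 2420 CPM in the olfactory-marker class; its part in these differences was not tested.

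**Figure D4:**
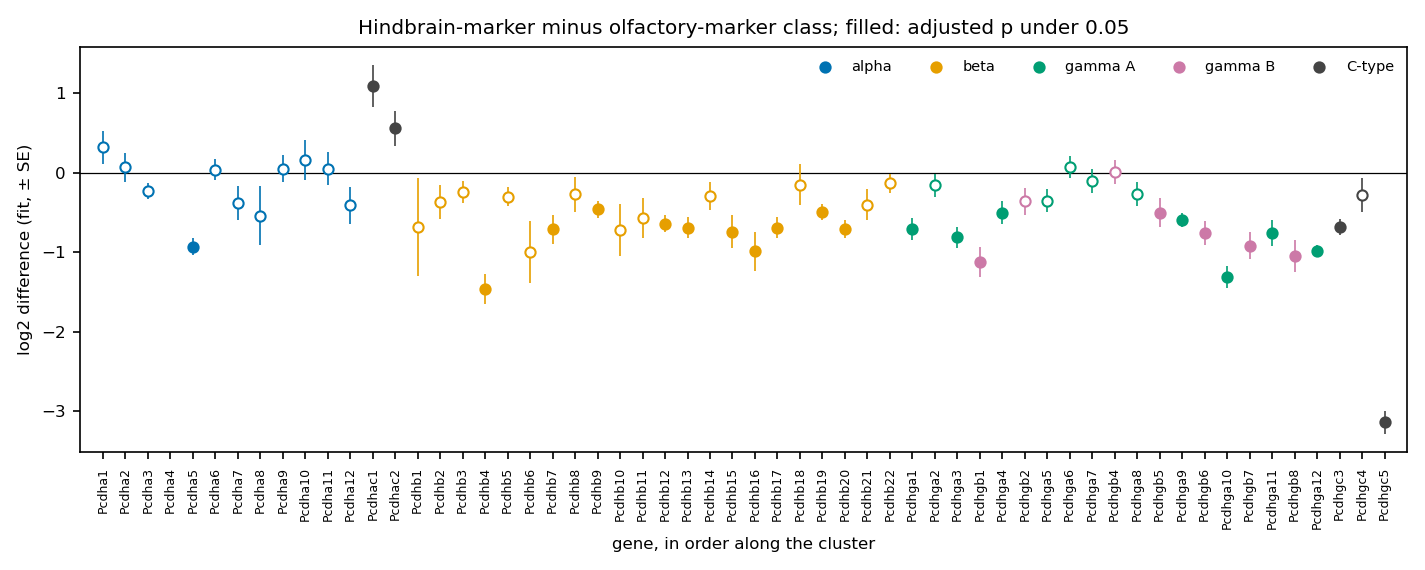
Log2 difference between the hindbrain- and the olfactory-marker class with its SE (vertical axis) for 57 tested members in order along the cluster (horizontal axis), coloured by subcluster, with filled points passing an adjusted p of 0.05. Pcdhgc5 at -3.14 lies far below the others, and the 2 filled points above 0 are Pcdhac1 and Pcdhac2.

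Of all tested members, the C-type gene Pcdhgc5 differed most between the hindbrain- and olfactory-marker classes. Pcdhgc5 was 12.2, 15.9, 16.6 and 20.5 CPM in the 4 hindbrain-marker libraries and 18.4 CPM in the cerebellum-marker library. It was 122, 126, 128, 157 and 160 CPM in the olfactory-marker class and 136, 148, 175, 183 and 194 CPM in the cortex-marker class. These ranges leave a wide gap between the former and the latter libraries. The log2 difference between the hindbrain- and olfactory-marker classes was -3.14 ± 0.14 (SE; adjusted p = 2.71e-08), an 8.83-fold lower level. Its share of the gamma counts was 3.10% to 4.36% in hindbrain- and cerebellum-marker libraries and 18.2% to 29.6% in the others.

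Pcdhac1 and Pcdhac2 were higher in the hindbrain- than in the olfactory-marker class. Pcdhac1 was 2.54 to 3.58 CPM in the olfactory-marker class and 5.34, 6.89, 7.68 and 7.74 CPM in the hindbrain-marker class, which did not overlap. Its log2 difference was 1.09 ± 0.26 (SE; adjusted p = 0.00456). Pcdhac2 was 29.3 to 43.2 CPM and 48.7 to 52.8 CPM in these classes, also without overlap, with a log2 difference of 0.56 ± 0.22 (adjusted p = 0.0476).

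Pcdhgc3 was 90.4 to 121 CPM in the olfactory-marker class and 58.3 to 68.6 CPM in the hindbrain-marker class. It fell by 0.68 ± 0.10 (SE) on the log2 scale (adjusted p = 0.000171). The cerebellum-marker library, a single TG sample that allows no test, held the highest level of Pcdhgc3 at 159 CPM, or 15.2% of all member counts. Pcdhgc4 was 32.8 to 42.5 CPM and 28.4 to 33.0 CPM in the same classes and did not pass.

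**Figure D5:**
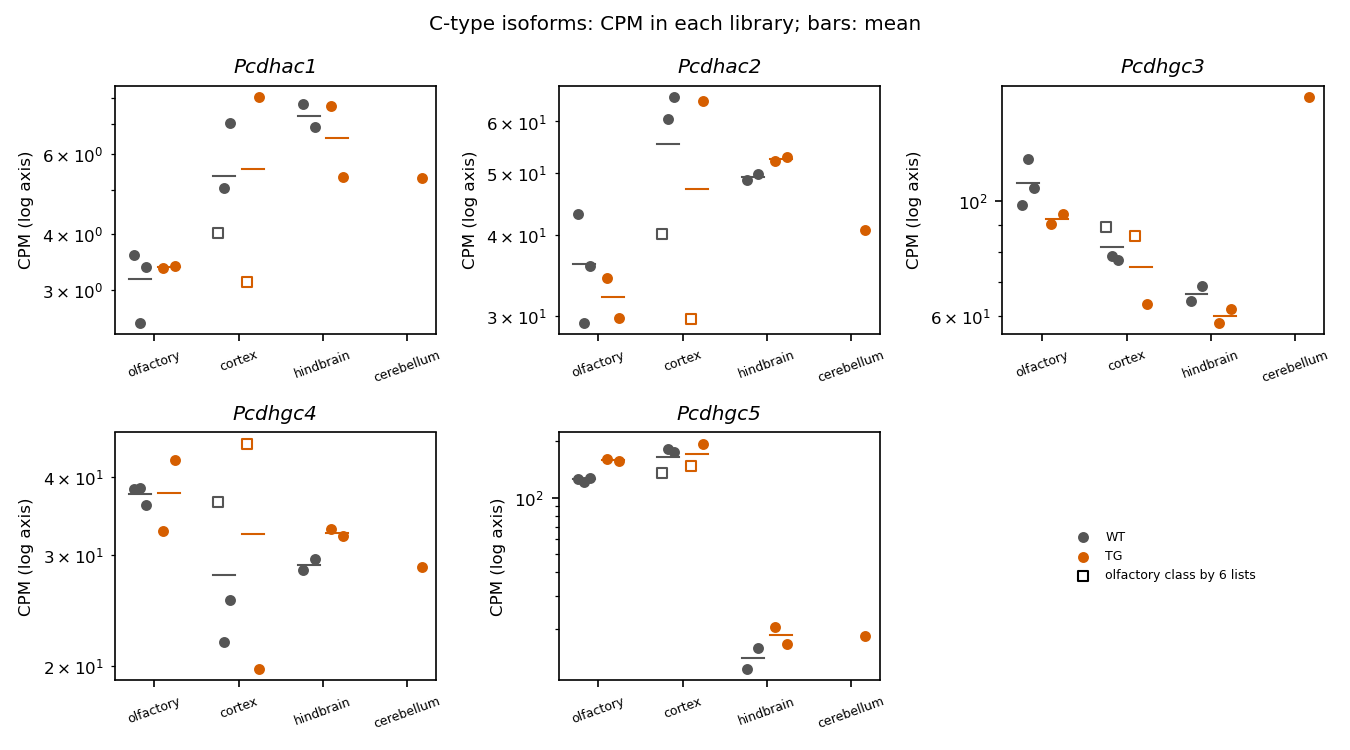
CPM (vertical log axis) of the 5 C-type genes in each library by marker class (horizontal axis) and genotype; bars are means and open squares the 2 libraries that 6 lists place in the olfactory class. Pcdhgc5 is 12.2 to 20.5 CPM in hindbrain- and cerebellum-marker libraries and 122 to 194 CPM elsewhere.

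Between the cortex- and olfactory-marker classes 0 of 57 members were called by edgeR's quasi-likelihood test, beside 0% of all genes. By this test 12 members had an unadjusted p under 0.05, and DESeq2 called 4, both without an all-gene share given here. With classes from 6 lists 34 passed, 9 higher and 25 lower in the cortex-marker class, beside 48.9% of all genes. The 5-list cortex-marker class was mixed: in WT male 2 and TG male 3, Pcdhac2 was 40.2 and 29.7 CPM, and 60.6, 64.6 and 65.4 CPM in the other 3 libraries. Without TG male 3 alone, 13 members passed, beside an all-gene share not given here. In the 6-list fit Pcdhb6 had a log2 difference of -1.45 ± 0.20 (SE), Pcdhac1 one of 1.00 ± 0.17 and Pcdha11 one of 0.88 ± 0.18. This comparison shares the olfactory-marker libraries with the previous one.

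Genes that act on or with the protocadherins were taken from 4 lists. Of 13 insulator and cohesin genes, 10 chromatin repressors, 20 downstream signalling genes and 16 delta protocadherins and classical cadherins, all tested, 0 passed between genotypes by edgeR's quasi-likelihood test, and 1, Ptk2b, had an unadjusted p under 0.05. Those with the lowest p in each list did not pass: Pds5b, a cohesin regulator, had a log2 difference of 0.09 ± 0.04 (SE) and Ctcf 0.15 ± 0.07. Dnmt1, the maintenance DNA methyltransferase, had 0.17 ± 0.10 and Trim28, a corepressor, 0.10 ± 0.08. Ptk2b, a kinase bound by protocadherin tails, had 0.20 ± 0.07 and Brk1, of the WAVE complex, -0.16 ± 0.07. Pcdh19 had -0.33 ± 0.18 and Pcdh11x -0.27 ± 0.15.

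Between the hindbrain- and olfactory-marker classes, 9 of 13 insulator and cohesin genes and 9 of 10 chromatin repressors were lower and 0 higher, beside 27.0% of all genes lower and 27.2% higher. Of 20 signalling genes 11 were lower and 2 higher, and of 16 other cadherins 6 were lower and 1 higher. Among genes within 2 Mb of the cluster that are no members, 1 of 59 tested passed between genotypes, beside 0.251% of all genes: Cd14, an innate immune receptor, with a log2 difference of 0.56 ± 0.09 (SE). The median log2 difference of these 59 was 0. Within 5 Mb, 2 of 98 tested passed, both higher in TG, beside the same 0.251% of all genes, and the median was 0.02. They were Cd14 and Kif20a, the latter with a log2 difference of 0.68 ± 0.12 (SE). Kif20a was 3.03 to 6.14 CPM in WT and 6.27 to 8.07 CPM in TG, without overlap.

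Likeness of pattern was measured as the Pearson correlation of log2 CPM over the 15 libraries, among the 12541 genes averaging 5 CPM or more. For Pcdhgc5, Celf5 and Dnal1 were among the 3 genes with the highest values, both with 0.993. For Pcdhac2 the 3 highest were Fam205a2 with 0.993, and Fam205a4 and Fam205a3 with 0.992 each. These correlations describe libraries that differ in region content.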

How the data were processed

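The authors deposited 1 table of whole-number read counts per gene for 15 libraries. Per the submitters' processing notes STAR 2.7.5b, featureCounts and Subread were used with GRCm38; strand setting and treatment of multi-mapping and overlapping reads are not given in the sources used here. Labels name a stranded, ribosome-depleted total RNA kit and, for the molecule, polyA RNA. Identifiers were matched to RefSeq symbols (25275 of 27179 matched). Genes were filtered with filterByExpr over genotype and sex (17151 kept), scaled by TMM and tested with edgeR 4.0.16 (R 4.3.3), quasi-likelihood, robust, with genotype, sex and region class; within-class contrasts used class-by-genotype means. Adjustment was Benjamini-Hochberg over all genes at 0.05; an SE is the absolute log2 difference divided by the square root of F. CPM use TMM-scaled library sizes. Levels per kb used the longest GENCODE exon starting within 500 bp of the RefSeq start, or the RefSeq span for beta genes.

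Members and lists were chosen with earlier results of these data known. The stated design forms region classes by Ward clustering on 5 marker lists (excitatory, striatal, cerebellum, hindbrain, hypothalamus), and that fit is the one reported, with a biological coefficient of variation of 22.1%. A version with an added olfactory bulb list (14.2%) was made after those calls had been seen and is given only as an alternative; without a class term the value was 43.1%.

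Named genes were the C-type genes and all members called between genotypes, with per-library values for up to 6 per direction by fold; up to 6 per direction by fold for classes; otherwise the 2 lowest p. Pcdha5, Pcdha9, Pcdha12, Pcdhb1, Pcdhb9 and the genes of the 6-list class comparison were named after their values were seen. Alternatives were DESeq2 1.42.0, limma-voom 3.58.1, RLE scaling, no filter, no robust step, no class term, leaving out libraries, and the replicate number as a block. The tests were tested on simulated data. No 2 libraries agreed within sampling noise (105 pairs, chi-square per gene at least 6.06). A gene that the naming rule selects for its likeness to Pcdhgc5 is not reported here.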

Additional observations from a re-analysis of the deposited data

Results flagged for a closer look

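In 46 checks of single values within the 7 TG or 8 WT libraries, 2 stood apart from the rest of their group by Dixon's criterion, which chance meets in about 1 of 20 groups. Both belong to TG female 3, the single library with cerebellum markers: Pcdhb3 was lowest there, at 13.9 CPM, and Pcdhgc3 highest, at 159 CPM. That library is alone in its class, so it adds nothing to the genotype difference in the fit with a class term. At about 1 in 20, 2 flagged values among 46 checks are near the number that chance gives. The checks covered genes and also sums that contain them, so they were not independent.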

How the results depend on the processing

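The count of 11 members called between genotypes was also 11 with limma-voom, RLE scaling, no filter on low counts and no robust step. It was 5 without the region class term, 20 with DESeq2, 2 when the 5 hindbrain- and cerebellum-marker libraries were left out, 20 with classes from 6 lists and 5 in the 7 olfactory-marker libraries of the 6-list classes alone; the last 2 settings were chosen after seeing the data. Leaving out 1 library gave 6 to 11, with 6 without TG female 2 and 7 without WT male 3 or WT male 4. In the olfactory-marker class the count of 0 became 5 with DESeq2, 7 with 6 lists and 0 to 1 with 1 library left out, the 1 without WT male 2. In the hindbrain-marker class it became 2 with DESeq2 and 2 with 6 lists, and was 0 in each fit with 1 library left out. Cortex against olfactory, 0, became 4 with DESeq2, 34 with 6 lists and 0 to 13 with 1 library left out; hindbrain against olfactory, 27, was 39 with 6 lists and 23 to 32 with 1 library left out. Beside the main count of 11, 0.251% of all genes were called, and beside the 6-list count of 20, 0.496%. The other 6-list shares are given above, and those of the remaining settings are not given here. Counts in those settings therefore do not tell a change in the members from a fit that calls more or fewer genes at large. The cause of these shifts was not tested, except that fewer samples enter some fits. The 6-list classes raise most counts, and because they were made after the 5-list calls were seen, those higher counts carry less weight.

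The sign of C-type values with no call turned in some fits. Pcdhac1, at 0.00, was 0.03 without the class term, 0.00 with DESeq2 and with RLE scaling, 0.11 without the 5 libraries, 0.01 with 6 lists, and -0.21 to 0.14 with 1 library left out, above 0 in 6 of these fits (0.03, 0.06, 0.10, 0.01, 0.08 and 0.14). With 1 library left out, Pcdhac2 was -0.26 to 0.03 and Pcdhgc4 -0.05 to 0.24, each turning without TG male 3, and Pcdhgc5 was -0.29 without the class term.

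With the replicate number as a block, 6 members were called between genotypes and 0 in the olfactory-marker class, beside an all-gene share not given here. Whether the numbers pair the samples could not be decided. Deviations from the mean of each genotype and sex correlated at -0.55 to 0.57 over 7 pairs of same-numbered TG and WT libraries. Of these pairs, 2 were over 0.1 and best with their own number. Region class was not removed from the deviations, so the correlations can neither show nor exclude pairing. Values at low counts, such as those of Pcdhb1 with 168 counts and Pcdha4 with 91, are imprecise. Whether the overlap with Gm37013 described above lowered the count of Pcdha4 was not tested.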
